A study of Mus musculus with 33 samples.

Results

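The nuclear-encoded subunits of oxidative phosphorylation were taken as the 96 probe sets, of 12488 on the array, whose single annotated symbol belongs to complex I to V or to cytochrome c. Members were chosen by symbol and not by signal: names beginning with Ndufa, Ndufb, Ndufc, Ndufs or Ndufv and a digit for complex I, Sdha to Sdhd for complex II, Uqcr names and Cyc1 for complex III, Cycs, Cox4i to Cox8 names for complex IV, and Atp5 names for complex V. They represent 70 genes, with 37 probe sets for complex I, 4 for complex II, 9 for complex III, 1 for cytochrome c, 23 for complex IV and 22 for complex V. A further 9 probe sets that carry such a symbol beside that of a pseudogene or near copy were kept apart.

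Complexes I to IV pass electrons from NADH and succinate to oxygen, complexes I, III and IV pump protons across the inner mitochondrial membrane, and complex V, the ATP synthase, uses the proton gradient to make ATP. Most of the subunits are encoded in the nucleus, while a few catalytic ones come from mitochondrial DNA and are not among these members. At birth the lung fills with air, its blood meets a sharply higher oxygen tension, and the newborn changes from placental glucose to milk as its fuel.

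RNA of whole organs of C57/BL mice was measured on 33 Affymetrix MGU74Av2 arrays, as MAS5 signals scaled to a common target, in 11 groups of 3. Lungs in room air (21% oxygen) were taken at fetal day 21 (F21, the last day of gestation) and at 2 h, 6 h, 12 h and 24 h after birth, and livers in room air at F21, 2 h and 6 h. Dams of a further set were kept in 10% oxygen from the end of gestation, and lungs were taken from their fetuses at F21, when the dam had spent 12 h at this oxygen level, and from pups born into 10% oxygen at 2 h and 6 h. All animals were untreated otherwise and none carried a genetic change, and nothing in the labels says which samples share a litter, so that p-values measure the spread between these samples. The organs matched their labels: 5 of 6 tested probe sets of lung epithelium were higher in F21 lung than in F21 liver, and 18 of 18 of hepatocytes were lower.

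Of the members, 70 probe sets (60 genes) were bright enough to be tested in lung, 65 (56 genes) in liver and 75 (61 genes) when both organs were fitted together, which left 26, 31 and 21 untested. Among those untested in lung were Sdha, the flavoprotein of complex II, at signals of 7.1 to 58 over the 33 arrays, and Cycs, cytochrome c itself, at 3.2 to 94.5. Probe sets hybridise with different strength, so a signal was compared between samples only within a probe set. Whole organs were used, so that fewer cells of a type and less RNA per cell cannot be told apart.

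These subunits had their largest number of calls across birth at 2 h in room air. The comparison of 2 h with F21 asks what the first breaths do to the lung. Of 70 tested members, 10 fell and none rose, against 2.77% of all 6930 probe sets that fell (adjusted p under 0.05, limma). The members' median log2 difference was -0.354, beside 0.021 over all probe sets tested. After Benjamini-Hochberg adjustment the methods' t-test passed 0 members, and at its unadjusted threshold 8. In limma 4 members passed without F21 array number 3, 5 without 2 h array number 1 and 3 without 2 h array number 3. The 3 arrays at 2 h lay below the 3 arrays at F21 for 29 of 70 members, beside 16.1% of all probe sets, and above them for 4 members, beside 14.7%.

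Complex I, which oxidises NADH, held 6 of the 10 falls, all in accessory subunits that surround its catalytic core. Ndufb6 gave signals of 512, 563 and 888 at F21 and of 267, 273 and 232 at 2 h. Ndufa8 gave 220, 280 and 352 at F21 and 103, 126 and 124 at 2 h. Ndufa7 gave 1521, 1574 and 2728 at F21 and 885, 1054 and 599 at 2 h. In each of the 3 genes every 2 h array was below every F21 array. The log2 differences were -1.31 ± 0.23 for Ndufb6 (SE, adjusted p = 0.00209), -1.25 ± 0.24 for Ndufa8 (adjusted p = 0.00433) and -1.18 ± 0.23 for Ndufa7 (adjusted p = 0.00423), which are falls by 2.47, 2.38 and 2.27 times. These 3 calls were kept in every one of 6 fits that left out 1 array. Ndufb5, Ndufb2 (95132_r_at) and Ndufa2 fell less, at log2 differences of -0.78, -0.78 and -0.77, and were lost in 3, 5 and 5 of those 6 fits. Ndufs1, Ndufs3, Ndufv1 and Ndufv2, the tested genes of the catalytic core, gave -0.03, -0.42, -0.34 and, in the 2 probe sets of Ndufv2, -0.56 and -0.39, and did not pass the test. Core and accessory subunits were not tested against each other.

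Complex III, which hands electrons to cytochrome c, had negative log2 differences in 9 of 9 probe sets, and 2 of them passed the test. Uqcr11, a small accessory subunit, gave 273, 345 and 472 at F21 and 65, 215 and 53.6 at 2 h, a log2 difference of -1.96 ± 0.43 (adjusted p = 0.00947). The 2 h arrays of Uqcr11 were spread widely, and the call was lost in 3 of 6 fits without 1 array. Cyc1, the cytochrome c1 that bears a heme of the complex, gave 1113, 1150 and 1099 at F21 and 710, 722 and 519 at 2 h, a log2 difference of -0.80 ± 0.18 (adjusted p = 0.0105). The other Cyc1 probe set (162469_r_at) differed by -0.22 with overlapping arrays, so the gene's probe sets disagreed. Uqcrh, Uqcrq, Uqcrc1 and Uqcrc2 had no overlap between 2 h and F21, at -0.59, -0.54, -0.61 and -0.68, with adjusted p from 0.0641 to 0.231. With quantile or cyclic loess normalization 8 and 7 of the 9 probe sets were negative.

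In complex V the epsilon and gamma subunits of the turning stalk passed the test. Atp5e, the epsilon subunit, gave 606, 591 and 956 at F21 and 236, 352 and 200 at 2 h, a log2 difference of -1.46 ± 0.31 (adjusted p = 0.00885). Atp5c1, the gamma subunit, gave opposite signs in its probe sets. The one that passed (92799_g_at) went from 585, 606 and 772 to 388, 417 and 339, and the other (92798_at) from 394, 413 and 469 to 517, 479 and 482, at log2 differences of -0.77 and 0.22. Whether Atp5c1 mRNA fell therefore cannot be read from the array. The 5 tested probe sets of Atp5d, the delta subunit, lay between -0.03 and 0.61 and none passed.

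No member of complex II or IV passed the test at 2 h. Sdhb, the iron-sulfur subunit of succinate dehydrogenase, and Cox6a1, the general form of subunit VIa of cytochrome c oxidase, had no overlap between the groups, at log2 differences of -0.59 (adjusted p = 0.163) and -0.62 (adjusted p = 0.0877). The medians of the complexes were -0.430 for complex I, -0.454 for II, -0.586 for III, 0.363 for IV and 0.132 for V. Their signs were the same under quantile and cyclic loess normalization.

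**Figure D1:**
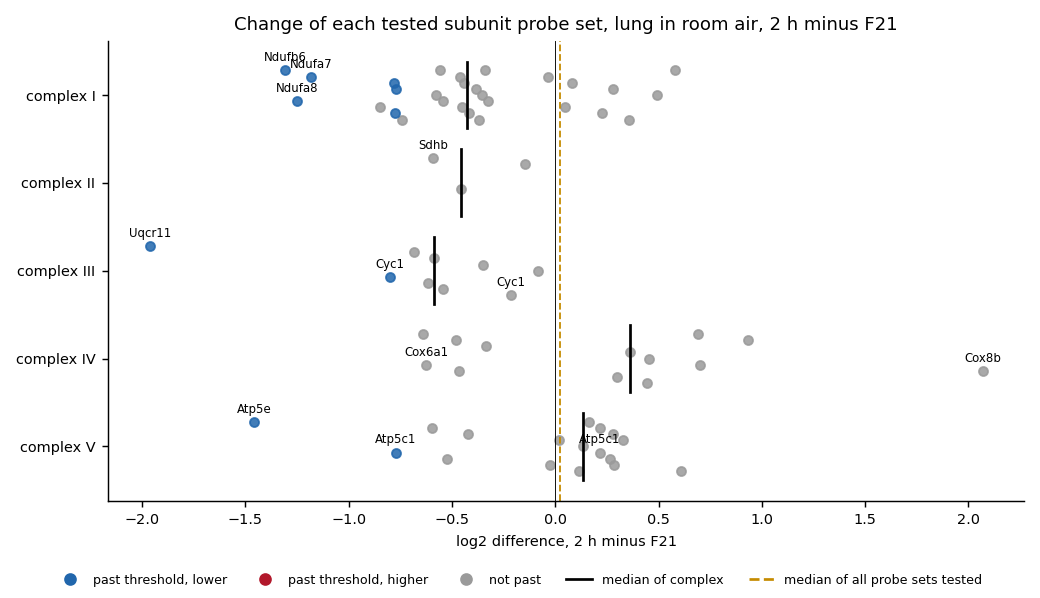
Log2 difference between 2 h and F21 lungs of room air (x axis) for each of the 70 tested probe sets, by complex (y axis); blue points passed the test, grey ones did not, black bars are medians of a complex and the dashed line is the median of all probe sets tested. All 10 points past the threshold lie to the left, 6 in complex I, 2 in complex III and 2 in complex V, and the medians of complexes IV and V lie to the right of 0.

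Over all members, and within complexes IV and V, the sign of a member went with its brightness. Split at the members' median brightness (a mean signal of 292 over the 24 lung arrays), 28 of the 35 brighter members were negative with a median of -0.480, and 16 of the 35 dimmer ones with a median of 0.082. Within complex IV the 6 brighter probe sets had a median of -0.472 and the 7 dimmer ones of 0.689, and within complex V the medians were -0.425 and 0.273. In complexes I and III the dimmer probe sets were mostly negative too. In complex I these were 12 of 18 with a median of -0.371, and in complex III 2 of 2 with a median of -1.323. The brighter members of all 5 complexes thus had negative medians, which were -0.661 in complex I, -0.454 in complex II and -0.543 in complex III. The array as a whole had the same slope: of the 1089 probe sets brighter than that split 10.3% fell, with a median of -0.158, and of the 5841 dimmer ones 1.37% fell, with a median of 0.058. Of the brighter members 7 of 35 fell, which is 20%. Cyclic loess normalization, which takes out such a slope, left 6 of the 10 calls and changed all calls from 102 higher and 192 lower to 116 and 125.

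**Figure D2:**
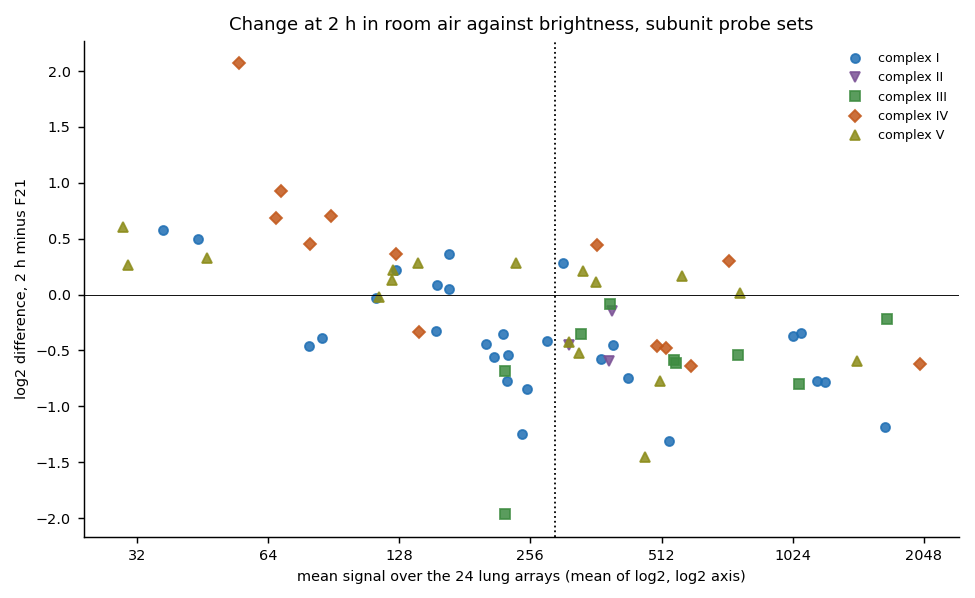
Log2 difference between 2 h and F21 lungs of room air (y axis) against the mean signal over the 24 lung arrays (x axis, log2 scale) for the 70 tested probe sets, with a symbol for each complex; the dotted line marks the split at 292. Points to the right of the line lie mostly below 0 in every complex, and the orange and olive points above 0.5 are dim probe sets of complexes IV and V.

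Other measures differed between the same 2 groups of arrays. The bacterial BioB control read 75.9 to 111 at 2 h and 227 to 529 at F21. The actin 3' to 5' ratio, a measure of RNA integrity, was 1.52 to 1.96 at 2 h and 1.23 to 1.37 at F21, without overlap, and 1.20 to 1.41 at 6 h. Summed signals of 16 erythroid probe sets were 18819 to 24510 at 2 h and 38429 to 42873 at F21, those of 7 lung epithelium probe sets 31785 to 38426 at 2 h and 54252 to 69613 at F21, and those of 20 neutrophil and macrophage probe sets 3615 to 5452 at 2 h and 1539 to 2778 at F21. The part of these in the fall was not tested. At 12 h the BioB control (73.9 to 99.5) was as low as at 2 h, the erythroid sum (17952 to 32023) reached the 2 h range and the neutrophil and macrophage sum (3473 to 4165) overlapped it, while the epithelium sum (56278 to 60184) was back in the F21 range. The actin ratio was 1.28 to 1.43 at 12 h. Of the 10 probe sets that had fallen, 6 were negative at 12 h against F21, at -0.55 to 0.21 over the 10 and none past the test. Ndufb6 at 602, 830 and 527 and Ndufa7 at 2034, 2528 and 1982 overlapped F21, while Ndufa8 at 184, 188 and 200 and Atp5c1 (92799_g_at) at 467, 466 and 440 lay below every F21 array.

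Promoters of 4 of the members that fell are shown as examples that hold motif matches, since genes that move together can be read for shared motifs. RefSeq promoters of 300 bases (build GRCm38.p6, 250 before and 50 after the annotated start) were matched for 56 of the 70 genes, as 61 promoters. The lines give Ndufb6 at chr4:40279372-40279671, Ndufa8 at chr2:36049289-36049588, Uqcr11 at chr10:80406772-80407071 and Atp5e at chr2:174464052-174464351, all on the minus strand. Capitals mark matches to the motifs searched on both strands: NRF-1 (GCGCANGCG, N being any base), ETS or GABP (CCGGAAG), YY1 (AAGATGGCG), Sp1 (GGGCGG) and the HIF response element (ACGTG).
Ndufb6: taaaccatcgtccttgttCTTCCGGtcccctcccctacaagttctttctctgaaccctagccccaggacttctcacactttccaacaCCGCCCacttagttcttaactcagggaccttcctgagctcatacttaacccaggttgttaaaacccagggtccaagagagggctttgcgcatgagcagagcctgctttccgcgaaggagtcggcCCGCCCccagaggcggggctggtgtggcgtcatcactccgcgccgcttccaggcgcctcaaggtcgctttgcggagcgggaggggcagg
Ndufa8: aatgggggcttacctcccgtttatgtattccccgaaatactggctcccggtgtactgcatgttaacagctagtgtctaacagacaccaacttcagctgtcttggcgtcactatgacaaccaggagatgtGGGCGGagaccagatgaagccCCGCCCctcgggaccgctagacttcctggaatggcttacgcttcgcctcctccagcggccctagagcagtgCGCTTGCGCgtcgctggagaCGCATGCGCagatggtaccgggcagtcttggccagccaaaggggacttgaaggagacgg
Uqcr11: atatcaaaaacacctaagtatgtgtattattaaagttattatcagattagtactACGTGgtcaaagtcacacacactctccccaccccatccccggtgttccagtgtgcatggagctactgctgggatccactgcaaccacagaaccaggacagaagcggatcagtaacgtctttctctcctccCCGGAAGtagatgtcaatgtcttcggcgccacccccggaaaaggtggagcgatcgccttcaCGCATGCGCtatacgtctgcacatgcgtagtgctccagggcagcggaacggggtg
Atp5e: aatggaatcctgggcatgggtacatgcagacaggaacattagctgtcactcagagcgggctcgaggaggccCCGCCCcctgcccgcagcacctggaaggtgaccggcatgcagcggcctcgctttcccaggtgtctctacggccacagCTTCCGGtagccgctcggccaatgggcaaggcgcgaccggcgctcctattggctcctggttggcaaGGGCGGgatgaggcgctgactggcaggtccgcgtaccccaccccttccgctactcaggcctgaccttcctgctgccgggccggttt
In Ndufa8 the capitals are 2 Sp1 matches followed by 2 NRF-1 matches. Uqcr11 has, in order, 1 HIF response element, 1 ETS match and 1 NRF-1 match, and Ndufb6 and Atp5e each have 1 ETS match and 2 Sp1 matches, in the order ETS, Sp1, Sp1 in Ndufb6 and Sp1, ETS, Sp1 in Atp5e. Of the other members that fell, Ndufb5 and Ndufb2 had no match to any of the 5 motifs, Ndufa7 had matches to the HIF response element alone, and Atp5c1 had 1 NRF-1 match in 1 of its 2 promoters. No promoter of Ndufa2 or Cyc1, which also fell, is described here. No single motif was thus in all the members that fell. Nuclear respiratory factor 1 and the GA-binding protein are known activators of respiratory chain genes. The NRF-1 motif was in 16 of the 61 member promoters (26.2%), in 6.25% of all 32851 promoters and in 8.58% of the 21262 promoters of coding genes. For the ETS motif the 3 shares were 24.6%, 8.86% and 11.6%, for YY1 8.2%, 1.4% and 1.83%, and for the HIF response element 29.5%, 19.6% and 20.9%. For Sp1 they were 44.3%, 35.7% and 46.2%, so that the members were above all promoters and below those of coding genes. A match is a run of letters and not a measured binding site, and ACGTG within CACGTG matches on both strands.

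Some members were higher at 6 h than at 2 h. A comparison of 6 h with 2 h in room air, added after the values had been seen and sharing its 2 h arrays with the comparison above, had 6 members higher and none lower, against 2.28% of all probe sets that were higher. Among the brightest 693 probe sets, which held 22 members and 5 of these 6 calls, 10.7% were higher. Over all 70 members the median was 0.119 with 32 negative, and the medians were 0.218 in complex I and 0.410 in complex III but -0.135 in complex II, -0.122 in complex IV and -0.265 in complex V. They were Ndufa7, Ndufa8, Ndufb5, Ndufb6, Cyc1 and Atp5l, and 5 of them are among the 10 that had fallen, which were chosen on the same 2 h arrays, so that the overlap is not independent of the choice. Atp5l, a small subunit of the membrane part of complex V, is the sixth. Ndufa7 was at 1710, 1900 and 1696 at 6 h, 1.10 ± 0.23 above 2 h on the log2 scale (adjusted p = 0.00794). Ndufb6 was at 548, 606 and 398 (0.99 ± 0.23, adjusted p = 0.0163) and Cyc1 at 1111, 1280 and 1004 (0.81 ± 0.18, adjusted p = 0.0128). No array at 6 h overlapped those at 2 h in these 3 genes. This count rested on single arrays: without 2 h array number 3 no member passed, without the first 2 h array or the first 6 h array 2 passed, and without the second 6 h array 1 passed.

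**Figure D3:**
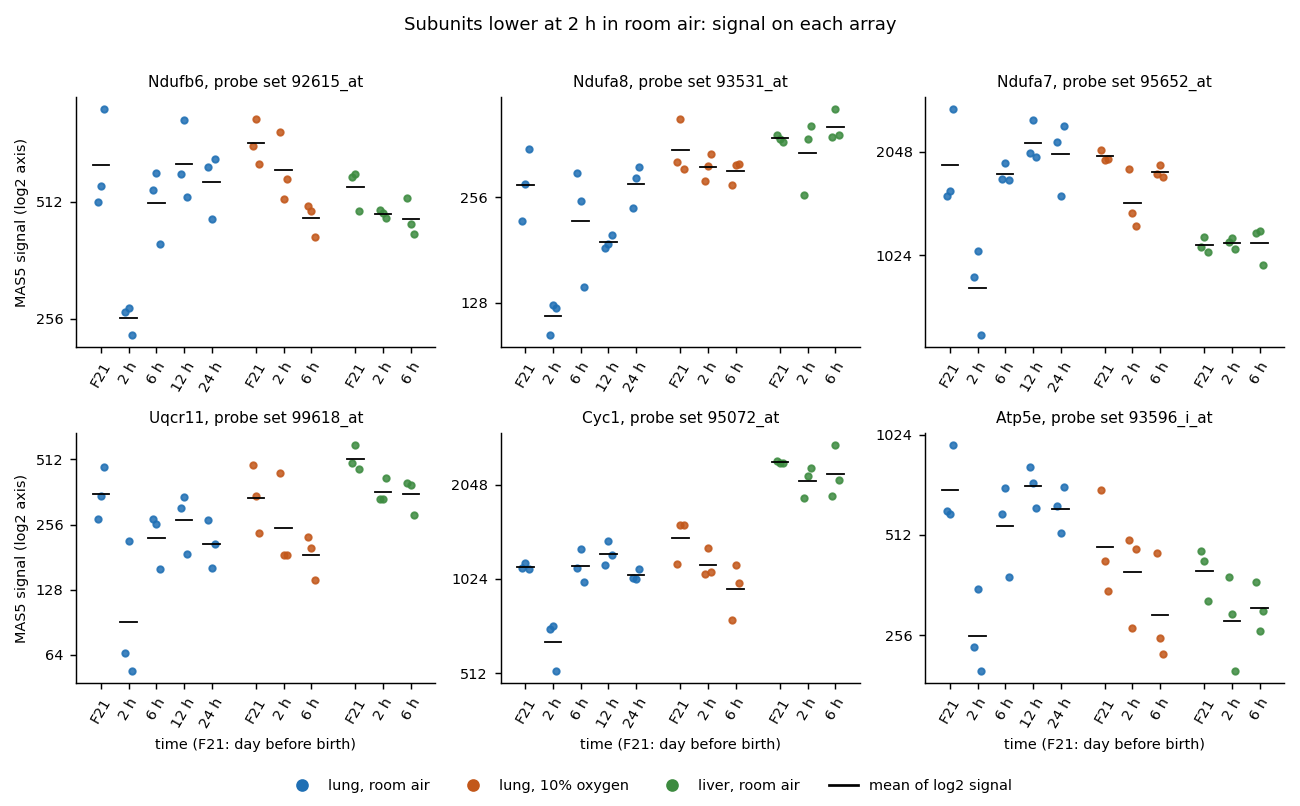
MAS5 signal on each array (y axis, log2 scale) of 6 subunits that fell at 2 h in room air, in 11 groups by time (x axis); points are arrays and bars are means of log2 signals. The 3 blue points at 2 h lie below those at F21 in all 6 panels, and the bars at 6 h to 24 h are higher again. Ndufa8 at 12 h and Uqcr11 at 6 h and 24 h still lie below all their F21 points, and some later points of Uqcr11 lie within its 2 h range.

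Later times in room air held no call among the members. At 6 h 0 of 70 passed (limma, beside 1.02% of all probe sets in either direction), with a median of -0.174. At 12 h 0 passed (beside 1.34%), with a median of -0.140. At 24 h 0 passed (beside 0.577%), with a median of -0.055. After Benjamini-Hochberg adjustment the methods' t-test passed 0 at each of these times, and at its unadjusted threshold 1, 0 and 2 members. The member level per array, as the median log2 difference from the F21 mean of each probe set, averaged 0.014 ± 0.146 at F21 (SD, 3 arrays), -0.243 ± 0.118 at 2 h, -0.142 ± 0.113 at 6 h, -0.151 ± 0.069 at 12 h and -0.082 ± 0.066 at 24 h. The means of 6 h and 12 h differed by less than their SD. Ndufa8, at 184, 188 and 200, was at 12 h still below every F21 array (-0.55, adjusted p = 0.365), and at 24 h it overlapped F21 again. Uqcr11 was below every F21 array at 6 h (270, 256 and 160) and at 24 h (269, 161 and 208). At 12 h (307, 342 and 186) it overlapped F21.

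The muscle forms of complex IV subunits varied without a call in room air. Cox6a2, the heart and skeletal muscle form of subunit VIa, gave 33, 30.3 and 16.2 at F21, 161, 196 and 113 at 6 h, 317, 92 and 109 at 12 h and 178, 122 and 135 at 24 h. Every array from 6 h on was above every F21 array, and at 2 h only the second array (134) was. The log2 differences were 2.60 at 6 h, 2.54 at 12 h and 2.50 at 24 h, each with an SE of 0.86 and adjusted p of 0.177, 0.179 and 0.209, so that none passed. In 10% oxygen Cox6a2 ranged from 15.1 to 250 without order. Its general partner Cox6a1 gave 1748, 2009 and 2470 at F21, 2360, 2238 and 1892 at 6 h and 2658, 2198 and 2519 at 24 h, with overlap at both times, and 1096, 1494 and 1449 at 2 h, below every F21 array.

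Cox8b, the muscle and brown fat form of subunit VIII, gave 35.4, 42.4 and 88.3 at F21 and 203, 183 and 264 at 2 h, then 123, 93.3 and 76.6 at 6 h, 9.6, 63.6 and 60 at 12 h and 37.7, 90.1 and 79.9 at 24 h, with overlap at these 3 times. The 2 h arrays did not overlap F21 (log2 difference 2.07 ± 0.69, adjusted p = 0.0883). In 10% oxygen the same probe set went from 15.3, 16.3 and 19.2 at F21 to 100.5, 54.7 and 107 at 2 h (2.31 ± 0.69, adjusted p = 0.0735). A second Cox8b probe set (161205_at) stayed at 6.6 to 37.2 in room air and was too dim to test. In 10% oxygen it went from 3.2, 1.8 and 6.5 at F21, under the floor of 10, to 27.7, 58.9 and 24.7 at 2 h. Cox7a1, the muscle form of subunit VIIa, was also untested, at 1.5 to 24 in room air lungs. In 10% oxygen Cox7a1 gave 71.5, 9.7 and 5.6 at F21 and 12.8, 3.6 and 2.4 at 2 h. At 6 h it gave 78.7, 49.8 and 62.9, with overlap with F21. Its partner Cox7a2 was at 550, 662 and 1364 at F21 and 515, 604 and 422 at 2 h in room air. Cox8a lay at 2.3 to 49.9 over all arrays and was untested, Cox4i1 is described with 10% oxygen, and no member probe set was annotated to Cox4i2.

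Heart muscle genes were measured beside these forms. Of 18 tested probe sets of heart muscle markers none passed in room air at any of these times, with medians of 0.639, 0.505 and 0.403 and 16, 15 and 13 of 18 positive. The summed signal of all 25 lay between 1674 and 2191 at F21. It lay between 2236 and 3244 at 2 h, between 2115 and 4052 at 6 h, between 2020 and 5148 at 12 h and between 2293 and 3184 at 24 h. Myl4, the atrial light chain, gave 95.6, 93 and 67.8 at F21 and 154, 193 and 235 at 24 h in 1 of its 2 probe sets, the one plotted, which at 2 h, 6 h and 12 h was also above every F21 array. The other Myl4 probe set gave 192, 179.8 and 192.5 and then 171.3, 256.3 and 195.3, with overlap. Skeletal muscle markers, 18 probe sets, summed to 583 to 683 at F21 and 469 to 889 at 24 h, and the 2 probe sets of Ucp1, which defines brown fat, read 3.6 to 54.7 over the room air lungs. The part of heart tissue in the Cox6a2 and Cox8b values was not tested.

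**Figure D4:**
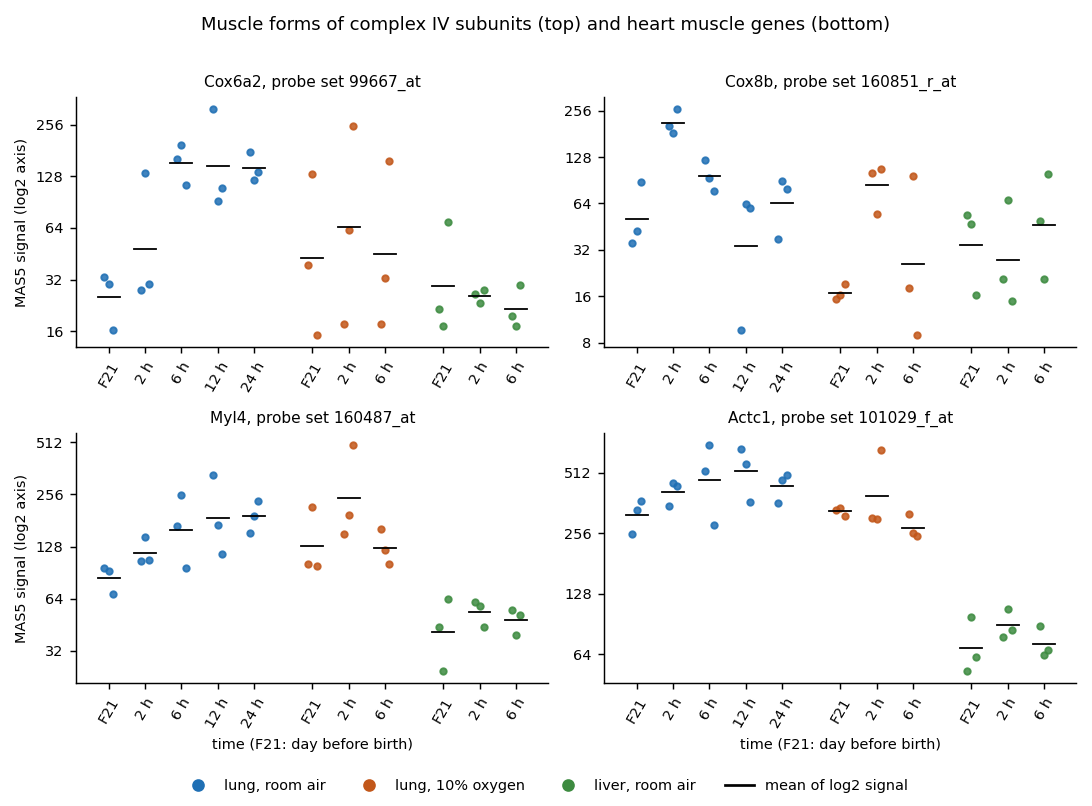
MAS5 signal on each array (y axis, log2 scale) of the muscle forms Cox6a2 and Cox8b and of the heart muscle genes Myl4 and Actc1, in 11 groups by time (x axis); points are arrays and bars are means of log2 signals with values under 10 set to 10. Cox6a2 in room air lies at 16.2 to 33 at F21 and at 92 to 317 from 6 h on, Cox8b is highest at 2 h, and the plotted Myl4 probe set lies above its F21 range at all later times in room air.

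Birth into 10% oxygen was compared with its own F21 baseline to ask what remains of the response at low oxygen. At 2 h 0 of 70 members passed (limma, beside 2.66% of all probe sets in either direction), with a median of -0.241. The methods' t-test passed 5 at its unadjusted threshold and 0 after adjustment. Ndufb6 gave 713, 834 and 639 at F21 and 774, 522 and 584 at 2 h, with overlap. Ndufa7 gave 2074, 1934 and 1952 at F21 and 1828, 1359 and 1244 at 2 h, lower on every array at a log2 difference of -0.45 (adjusted p = 0.319). The 10 members that fell in room air were all negative here, from -0.57 to -0.04.

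The change at 2 h in room air minus that in 10% oxygen was tested as an interaction. No member passed (limma, beside 0.476% of all probe sets), with a median of -0.125. Ndufb6 differed by -1.08 with a 95% interval of -1.74 to -0.41 (adjusted p = 0.149), Ndufa8 by -1.09 from -1.79 to -0.38 (adjusted p = 0.176) and Ndufa7 by -0.74 from -1.40 to -0.07 (adjusted p = 0.326). The fall in room air was thus not shown to differ from that in 10% oxygen after adjustment. RNA integrity differed between these arrays. In 10% oxygen the Gapdh 3' to 5' ratio was 1.21, 6.79 and 9.4 at F21. It was 3.01, 5.39 and 1.81 at 2 h and 1.37, 5.82 and 4.72 at 6 h. Room air lungs lay at 0.734 to 1.15. The part of RNA integrity in the changes in 10% oxygen was not tested. At 6 h no member passed the interaction test (beside 0.0144%), with a median of 0.143.

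At 6 h in 10% oxygen 4 members were lower than at F21, against 3.32% of all probe sets. A further 2 were higher, a share of the tested members close to the 2.99% of all probe sets. These 2 rises are thus single probe sets and not a result about the members. Among the brightest 693 probe sets, which held 22 members, 9.09% were lower, and so were 2 of those members, a share close to it. Among the next 693, which held 16 members, 5.48% were lower, and so was 1 of those members. The 4 falls are therefore read as single probe sets as well. Ndufb10, an accessory subunit of complex I, gave 298, 272 and 265 at F21 and 153, 167 and 160 at 6 h, with no overlap (log2 difference -0.80 ± 0.21, adjusted p = 0.0199). Atp5o, which joins the head and the stator of complex V, gave 517, 399 and 465 at F21 and 180, 283 and 278 at 6 h (-0.92 ± 0.26, adjusted p = 0.0363). Ndufb5 and the falling probe set of Atp5c1 were the other two, at -0.65 and -0.83. The median of complex V was -0.537 with 14 of 17 negative, beside -0.191 in complex I and -0.022 over all probe sets. The summed lung epithelium markers were 55276 to 59613 at 6 h and 24350 to 47888 at F21, and those of neutrophils and macrophages 2428 to 3279 and 1185 to 1517, without overlap. Their part in these values was not tested.

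The 2 rises at 6 h in 10% oxygen were both in complex IV and had overlapping groups. Cox4i1, the general form of subunit IV, gave 18.1, 12.6 and 136 at F21 and 181, 85.2 and 137 at 6 h (93788_at, 2.03 ± 0.58, adjusted p = 0.0363), and its other probe set did not pass. Cox8c, another form of subunit VIII, gave 236, 166 and 148 at F21 and 366, 405 and 230 at 6 h (0.85 ± 0.24, adjusted p = 0.0337). Against the F21 lungs of room air, at 541, 479 and 316, the Cox8c difference turned to -0.42. A second Cox8c probe set (161475_f_at), too dim to test, gave 21.6, 34.7 and 8.9 at F21 and 4.5, 35.8 and 55.1 at 6 h, with overlap. Without F21 array number 2 or 3 of 10% oxygen 2 members passed at 6 h, and without the first 6 h array 1. A fit of these 2 groups alone, and one with array weights, passed 0.

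Maternal exposure to 10% oxygen before birth was compared with room air at F21. Of 70 members 3 were lower and none higher, a share close to the 4.62% of all probe sets that were lower. These 3 calls are thus single probe sets and not a result about the members. Cox8c was at 236, 166 and 148 against 541, 479 and 316 in room air (-1.27 ± 0.24, adjusted p = 0.00231). Cox6b1 was at 21.7, 40.3 and 74.1 against 139, 141 and 75.3 (-1.50 ± 0.39, adjusted p = 0.0203), and 1 of 5 tested Atp5d probe sets was at 7, 3.7 and 8.1 against 72.4, 49.3 and 50.4 (94279_at, -2.50 ± 0.69, adjusted p = 0.0275). The groups did not overlap in these 3 probe sets, while the other 4 Atp5d probe sets lay between -1.61 and 0.55 and did not pass. A second Cox8c probe set (161475_f_at), too dim to test, was higher and not lower, at 21.6, 34.7 and 8.9 against 2, 6.9 and 3.6 in room air. Without either the first or the second F21 array of room air 1 member passed. The Gapdh 3' to 5' ratio, a measure of RNA integrity, was 1.21 to 9.40 over the 9 arrays of 10% oxygen and 0.734 to 1.15 over the 15 lung arrays of room air. With this ratio as a covariate 1 member passed. Marker sums also differed without overlap between 10% oxygen and room air at F21. They were 24350 to 47888 against 54252 to 69613 for lung epithelium, 22593 to 27954 against 18081 to 21362 for fibroblasts and smooth muscle, 25709 to 37250 against 38429 to 42873 for erythroid cells and 1185 to 1517 against 1539 to 2778 for neutrophils and macrophages. Hepatocyte markers summed to 622 to 4162 against 535 to 756. The part of these in the 3 calls was not tested.

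Liver was taken beside lung as an organ that does not itself meet the air. At 2 h 0 of 65 members passed (limma, beside 0.914% of all probe sets in either direction), with a median of -0.116. At 6 h 0 passed (beside 1.85%), with a median of -0.160. The methods' t-test passed 3 and 0 members at its unadjusted threshold, and none after adjustment. Ndufb6 gave 594, 604 and 484 at F21 and 488, 478 and 466 at 2 h in liver, and Ndufa7 gave 1084, 1153 and 1049 and then 1122, 1148 and 1069. Both overlapped.

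When the change at 2 h in liver was subtracted from that in room air lung, 1 member passed, against 0.694% of all 7636 probe sets in the same direction. It was Ndufa7, at -1.21 ± 0.29 (adjusted p = 0.0338), lower in 3 of 3 lungs at 2 h and flat in liver. Among the brightest 764 probe sets, which held 31 members and this call, 3.66% were lower, a share close to 1 of 31. The call is thus a single probe set and not a result about the members. Ndufb6 and Ndufa8 followed at -1.08 (adjusted p = 0.069) and -1.11 (adjusted p = 0.0921). At 6 h no member passed (beside 0.196%), with a median of -0.022. The Ndufa7 call was lost in 9 of 12 fits that left out 1 array, which were those without F21 lung number 3, 2 h lung number 1 or 3, or any 1 of the 6 livers. Without the second 2 h lung 2 members passed.

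Lung and liver before birth gave the largest count of calls among these subunits. In F21 lung 18 of 75 members were lower than in F21 liver, against 11.9% of all 7636 probe sets, and 5 were higher, against 16%. The members' median was -0.244 while that of all probe sets was 0.142. Among the brightest 764 probe sets, which held 31 members, 15.6% were lower and 36.1% higher over all, while 11 members were lower and 4 higher. Cyclic loess normalization moved the median of all probe sets to -0.012, all calls from 1225 higher and 911 lower to 918 and 1108, and the members to 1 higher and 31 lower.

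Complex III stood lower in lung in 9 of 9 probe sets, with a median of -0.619 and 4 past the test, and in 8 of 9 with quantile normalization. Uqcrq, an accessory subunit, gave 573, 601 and 746 in lung and 2649, 2763 and 2616 in liver (-2.07 ± 0.18, adjusted p = 7.13e-11). The organs were apart on all arrays, and the later lungs, from 394 to 1293, stayed below the later livers, from 1956 to 2633. Cyc1 gave 1113, 1150 and 1099 in lung and 2447, 2413 and 2412 in liver (-1.11 ± 0.17, adjusted p = 4.91e-06), while its other probe set did not differ. Uqcrc1, a core protein, and Uqcr10 were lower too, at -0.79 and -0.74.

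In complex II 3 of 3 tested probe sets were negative and 2 passed. Sdhd, a membrane anchor of succinate dehydrogenase, gave 411, 387 and 670 in lung and 910, 1514 and 1030 in liver (-1.25 ± 0.30, adjusted p = 0.00218). Sdhb was lower at -0.60. Complex I was mixed, with 5 lower and 3 higher of 29. Ndufb8 gave 308, 443 and 588 in lung and 801, 887 and 927 in liver (-1.01 ± 0.24, adjusted p = 0.00171). Ndufb9, Ndufb10, Ndufv2 (94062_at) and Ndufa6 were lower at -0.89, -0.72, -0.70 and -0.74. The other Ndufv2 probe set (162327_f_at) gave 111.2, 149 and 127.2 in lung and 99, 130.5 and 123.2 in liver, with overlap, so the gene's probe sets disagreed. Ndufa7, Ndufa10 and Ndufb5 were higher, at 0.77, 0.94 and 0.52. So Ndufa7, which fell at 2 h, started from a higher level in lung than in liver, and at 2 h the lung values of 885, 1054 and 599 were below the 3 livers of 1122, 1148 and 1069.

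Complex IV had 5 lower and 1 higher of 16. Cox7b, Cox6a1 and Cox5b were lower at -1.04, -0.75 and -0.68, and Cox4i1 (102124_f_at) at -1.06 with overlapping arrays. The other Cox4i1 probe set (93788_at) gave 74.5, 53.8 and 85.6 in lung and 84.2, 99.6 and 67.9 in liver, with overlap. One probe set of Cox6c (162319_i_at) read 39.1, 23.4 and 6.4 in lung and 497, 505 and 637 in liver (-4.70 ± 0.59, adjusted p = 1.67e-07), but the bright one (100550_f_at) read 722, 633 and 1004 against 774, 894 and 980, with overlap, and the gene was taken as uncertain. Cox7a2l was higher in lung, at 517, 525 and 516 against 289, 210 and 291 (0.997 ± 0.25, adjusted p = 0.00267). Complex V had Atp5md and Atp5a1 lower, at -0.88 and -0.57, and Atp5e higher, at 0.81, and its median of -0.083 turned to 0.083 with quantile normalization. Cell composition differed between these organs: 8 of 14 tested erythroid probe sets and 10 of 15 of neutrophils and macrophages were lower in lung. RNA integrity differed as well, with a Gapdh 3' to 5' ratio of 0.824 to 1.03 in F21 lung and 1.34 to 1.86 in F21 liver and an actin ratio of 1.23 to 1.37 and 2.46 to 2.99. The part of either in these values was not tested.

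**Figure D5:**
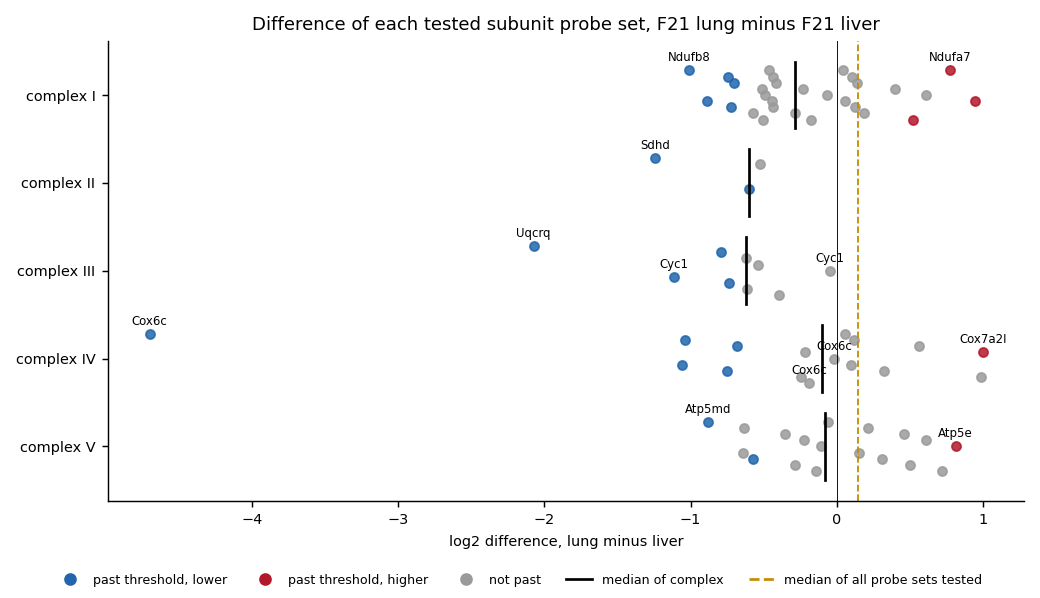
Log2 difference between F21 lung and F21 liver (x axis) for each of the 75 tested probe sets, by complex (y axis); blue points passed the test as lower in lung, red ones as higher, grey ones did not pass, black bars are medians of a complex and the dashed line is the median of all probe sets tested (0.142). All points of complexes II and III lie below 0, and 5 red points lie in complexes I, IV and V.

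Other genes of mitochondria were read from lists chosen with earlier results of these data known. At 2 h in room air, where 2.77% of all probe sets fell, 1 of 19 tested probe sets of assembly factors fell, Foxred1 (-0.999, adjusted p = 0.0217), which helps to build complex I, with a list median of -0.323. Of 9 regulators of mitochondrial biogenesis 1 fell, Esrra (-1.07, adjusted p = 0.0304), a nuclear receptor that drives respiratory genes, and it was higher again at 6 h than at 2 h by 1.17 (adjusted p = 0.0222). Of 20 probe sets of the citric acid cycle and pyruvate dehydrogenase Idh2 fell (-1.05), of 18 inner membrane carriers 1 probe set of Slc25a5, an ADP and ATP carrier (-2.27), and of 17 for import and chaperones Timm13 (-1.34) and Timm17b (-0.99). In none of these 5 lists did a probe set rise. With 1 or 2 calls a list, these are single genes and not a result about the lists.

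Ribosomal protein genes were read at the same time, again beside 2.77% of all probe sets that fell and 10.3% of those brighter than 292. Of 50 tested mitochondrial ribosomal probe sets 3 fell, Mrpl12 (-1.56), Mrpl23 (-1.02) and Mrpl18 (-0.88), with a median of -0.403. Of 32 cytosolic ribosomal probe sets 10 fell and 1 rose, with a median of -0.703, among them Rps10 (-1.07), Rpl19 (-1.04) and Rps3 (-1.001). Rps28 gave opposite signs in its probe sets, -1.04 and 2.86. The share that fell was 10 of 70 for the subunits of the respiratory chain and 10 of 32 for cytosolic ribosomal proteins.

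In F21 lung against liver, where 11.9% of all probe sets were lower and 16% higher, import and chaperone genes were lower in 9 of 20 probe sets, among them Hspa9 (-2.59), Hspd1 (-1.24) and Lonp1 (-2.01), and inner membrane carriers and electron carriers in 5 of 19, among them Etfb (-1.58), Etfdh (-2.32) and Slc25a1 (-1.01). The citric acid cycle list had 3 lower, Fh1 (-1.11), Suclg2 (-1.07) and Suclg1 (-0.86), and 1 higher, Pdha1 (1.07), of 20. Lrpprc (-2.09), which stabilises mitochondrial mRNA, was the only assembly factor of 19 lower in lung, and Ppara (-1.97) and Sirt3 (-1.91) were the 2 lower regulators of 10.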

How the data were processed

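RNA samples of lungs and livers were hybridised to 33 Affymetrix MGU74Av2 arrays, with a separate sample on each array. The sample titles and the study's methods do not state whether a sample came from a single animal or from a pool. Per the labels and the study's methods, the authors computed each deposited intensity in MAS5 and scaled every chip to a target of 100; background settings are not given in the sources used here. From these values, signals under 10 were set to 10 and log2 was taken, 66 control probe sets were left out, and a probe set was tested if it was in the top 40% of signals on at least 3 arrays of the fit. Symbols came from GEO's platform annotation, and 96 of 96 member probe sets matched a RefSeq gene. Group means were fitted in limma 3.58.1 (R 4.3.3, eBayes with trend) over the 24 lung arrays, the 9 liver arrays or all 33, with 16, 6 and 22 residual degrees of freedom, and p-values were adjusted by Benjamini-Hochberg over all probe sets tested (6930, 5691 and 7636). Errors are SE from the fit, over 3 arrays a group, and the number of arrays limits the precision. The methods' t-test compares 2 groups at an unadjusted p under 0.01. Shares of all probe sets are not given beside its counts, which are thus not read as a result about the members.

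Named genes were every member past the threshold, up to 3 per complex where more than 25 passed, the extremes per complex at 2 h in room air, the muscle forms with their partners, genes whose probe sets disagree, and up to 3 genes of each other list with the smallest p. Members and lists were chosen with earlier results of these data known. Alternatives changed the floor, the scaling (quantile, cyclic loess), the filter, the arrays fitted, the replicate block, array weights, the Gapdh ratio as a covariate, the test, the baseline of 10% oxygen and the probe sets used, and left out each array in turn. The comparison of 6 h with 2 h was added after the data had been seen. The scripts were tested on simulated data. The main fits did not pair samples by their numbers. Deviations of same-numbered arrays correlated at -0.139 to 0.256 over 84 pairs of lung arrays, 5 of them over 0.1. Over 9 pairs of liver arrays they correlated at -0.007 to 0.053. Lung arrays were not compared with liver arrays of the same number, and low correlations cannot show that samples are unpaired.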

Additional observations from a re-analysis of the deposited data

Results flagged for a closer look

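The change at 2 h differed between lung and liver for Ndufa7, with a tested difference of -1.21 on the log2 scale (limma interaction, adjusted p = 0.0338): it was -1.18 in lung and 0.02 in liver. The call was lost in 9 of 12 fits without 1 array, with cyclic loess normalization, with no filter and in a fit of the compared groups alone. It is a single probe set, beside 3.66% of the brightest 764 probe sets that were lower in the same comparison.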

How the results depend on the processing

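At 2 h in room air the 10 calls became 6 with cyclic loess normalization, 6 without probe sets whose ID ends in f, r, i, g or s, 23 with array weights and 0 in the methods' t-test after adjustment, and the members' median became -0.134 with no filter. At the later times of room air in turn the 0 calls became 1, 2 and 1 with array weights, 1 at 6 h and at 12 h with the compared groups alone, 1 at 24 h with the top 30% filter, and 1 and 2 at 6 h and 24 h in the methods' t-test at its unadjusted threshold. For 10% oxygen at 2 h the 0 calls became 1 with loess, 2 with no filter, 5 in the unadjusted t-test and 5 with room air F21 as the baseline. For 10% oxygen at 6 h the 6 calls became 0 with array weights, with the compared groups alone and in the adjusted t-test, and 2 in the unadjusted one, the median became -0.342 with the top 30% filter and -0.351 with room air F21 as the baseline, where Cox8c turned to -0.42. For 10% oxygen against room air at F21 the 3 calls became 5 with no filter, 1 with the top 30% filter, 1 with the Gapdh ratio, 5 with array weights, 1 with the compared groups alone and 0 in the adjusted t-test, and the median of -0.051 became 0.058 with loess, 0.042 with the top 30% filter and -0.140 with the Gapdh ratio. In liver the unadjusted t-test gave 3 calls at 2 h, and the Gapdh ratio took the 6 h median to -0.042. For F21 lung against liver the 23 calls became 11 in the t-test, adjusted or not, and the median of -0.244 became -0.505 with loess, -0.415 with the top 30% filter, -0.356 with 1 probe set per gene and -0.375 without the suffixed probe sets. For lung minus liver at 2 h the single call became 2 with quantile normalization, 0 with loess, 0 with no filter, 2 with the top 30% filter, 4 with array weights and 0 with the compared groups alone, and the median became -0.057 with loess and -0.061 with no filter. For 6 h against 2 h the 6 calls became 3 with loess, 3 with no filter, 23 with array weights and 0 in the adjusted t-test, and the median became 0.026 with no filter. The causes were not tested.

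Leaving out 1 array gave 3 to 11 calls and medians of -0.421 to -0.241 at 2 h in room air, and 0 to 1 calls at 24 h. For 10% oxygen it gave 0 to 1 calls and medians of -0.342 to -0.174 at 2 h, 1 to 9 calls and -0.360 to -0.252 at 6 h, and against room air at F21 1 to 3 calls and -0.058 to 0.083. The liver medians were -0.211 to -0.093 at 2 h and -0.233 to -0.061 at 6 h. F21 lung against liver gave 15 to 20 calls, 15 without the first F21 lung, and -0.370 to -0.267. Lung minus liver at 2 h gave 0 to 2 calls, and 6 h against 2 h gave 0 to 6 calls and 0.011 to 0.167. With the replicate block 9 members were called at 2 h in room air, 24 in F21 lung against liver and 4 in 6 h against 2 h, and the counts of the other comparisons were as without it. Of 3168 member values 326 were under the floor of 10, where differences cannot be read.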

Other observations

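Some subunits are read only by probe sets that also carry the symbol of a near copy, and these were counted in no comparison above. At 2 h in room air a probe set for Ndufs6b or Ndufs6, an accessory subunit of complex I, fell from a mean signal of 557.8 to 292.1 (96291_f_at, -0.93, limma adjusted p = 0.00947), and the other (96292_r_at) went from 660.0 to 502.4 (-0.38, adjusted p = 0.242). Both probe sets for Gm12338 or Cox7c, a small subunit of complex IV, were lower but not past the threshold, at -0.71 (adjusted p = 0.0691) and -0.75 (adjusted p = 0.0641). The probe set shared by Ndufb4, Ndufb4b and Ndufb4c differed by 1.77 (adjusted p = 0.276). Those of Ndufa11 and Ndufs5 and their copies both differed by -0.01.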
